A study of Mus musculus with 20 samples.

Results

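The genes Stfa1, Stfa2, Stfa3 and Cstdc6 are 4 members of a cluster of stefin genes on mouse chromosome 16. They were taken from the array through the transcript accession of each probe, which gave 1 probe per gene, or 4 of the 56605 probes and 4 of the 22911 named genes on the array. The set was picked because Stfa1 and Cstdc6 had much higher values in anagen, the growth phase of the hair cycle, than in telogen, its resting phase. That contrast therefore describes these genes and does not test them. Among the 18727 genes kept for testing, all 4 were present.

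Stefins are small inhibitors that stay inside the cell and block papain-like cysteine proteases, the cathepsins, by filling the active site. Stefin A of humans is made in stratified epithelia and is a building block of the cornified envelope, the cross-linked protein shell of dead keratinocytes. In the mouse the gene was duplicated into a tandem cluster, and its members are known from skin and also from neutrophils and their precursors. Cstdc6 belongs to this cluster by position and by its cystatin domain, and little else is established for it.

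The RNA came from cells labelled as hair follicle stem cells of male mice, the cells of the bulge that rebuild the follicle at each cycle. The groups were aged mice of 24 months with no diet given, mice of 5 months on a high fat diet (HFD) or a normal diet (ND) for 3 months, and mice of 2 months on HFD or ND for 4 days. Each of these 5 conditions had 1 anagen array and 3 telogen arrays, 20 arrays in all. The strain, how the cells were isolated and whether an array holds 1 animal or a pool are not given in the sources used here, so p-values speak only of the spread among the samples at hand. Cd34 and Krt15, which mark bulge stem cells, were well above background on all 20 arrays. Per array, 60.7% to 83.49% of spots gave a signal well above background. All anagen arrays lay in column 1 of their slide and all telogen arrays in the other columns, so phase and column cannot be told apart. In RNA from many cells, more cells of a type and more RNA per cell cannot be told apart.

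Because the 4 genes sit among near copies, the sequences in front of their starts are shown first. RefSeq promoters (build GRCm38.p6, the 250 bases before the annotated start, written 5′ to 3′ on the strand of the gene) were at hand for Stfa1, Stfa2, Stfa3 and 6 other genes of the cluster. Capitals mark the 7 runs of at least 10 bases that the promoters of Stfa1, Stfa2 and Stfa3 have in common. The promoters of Stfa2l1 and Cstdc5 are printed as the closest relatives.
Stfa1, chr16:36276898-36277147 (+ strand): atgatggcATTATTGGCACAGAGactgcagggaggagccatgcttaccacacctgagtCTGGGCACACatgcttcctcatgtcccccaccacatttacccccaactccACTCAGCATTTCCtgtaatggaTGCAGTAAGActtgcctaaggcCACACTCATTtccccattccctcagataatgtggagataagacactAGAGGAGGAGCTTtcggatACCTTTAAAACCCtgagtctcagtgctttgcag
Stfa2, chr16:36408364-36408613 (- strand): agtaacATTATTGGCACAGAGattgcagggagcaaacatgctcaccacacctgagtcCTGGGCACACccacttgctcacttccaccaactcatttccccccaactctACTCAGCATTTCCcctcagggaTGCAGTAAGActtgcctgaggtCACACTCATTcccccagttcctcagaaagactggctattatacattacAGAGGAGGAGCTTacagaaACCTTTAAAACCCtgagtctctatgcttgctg
Stfa3, chr16:36455393-36455642 (- strand): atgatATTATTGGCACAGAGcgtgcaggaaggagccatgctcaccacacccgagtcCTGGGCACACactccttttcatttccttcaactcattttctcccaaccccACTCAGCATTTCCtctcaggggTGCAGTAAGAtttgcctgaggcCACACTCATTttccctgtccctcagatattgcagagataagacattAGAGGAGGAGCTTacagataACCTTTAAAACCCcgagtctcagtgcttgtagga
Stfa2l1, chr16:36156561-36156810 (+ strand): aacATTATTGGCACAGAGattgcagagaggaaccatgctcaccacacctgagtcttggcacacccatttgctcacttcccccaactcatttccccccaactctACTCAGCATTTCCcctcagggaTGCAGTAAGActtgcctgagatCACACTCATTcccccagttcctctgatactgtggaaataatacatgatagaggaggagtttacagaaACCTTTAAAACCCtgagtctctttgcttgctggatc
Cstdc5, chr16:36367571-36367820 (- strand): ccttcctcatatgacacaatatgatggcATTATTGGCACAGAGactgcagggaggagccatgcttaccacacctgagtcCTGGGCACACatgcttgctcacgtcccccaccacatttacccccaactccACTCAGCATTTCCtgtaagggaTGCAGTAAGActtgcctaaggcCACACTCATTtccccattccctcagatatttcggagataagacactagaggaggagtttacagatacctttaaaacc

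The 3 stefin A promoters were close to each other over the whole window. Stfa1 and Stfa2 were identical at 81.0% of aligned positions, Stfa1 and Stfa3 at 83.5%, and Stfa2 and Stfa3 at 80.4%. Stfa2 and Stfa2l1 were closer still, at 89.4%, and Stfa1 and Cstdc5 matched at 81.2%. Csta2, a stefin gene next to Stfa1 in the cluster, shared 47.2% with Stfa1. The longest common run was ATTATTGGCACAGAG, which lies at positions -242 to -228 from the start in Stfa1. It was found in 5 of the 9 stefin promoters and in 5 of 32851 mouse promoters, or 0.0152%. The run nearest the start, ACCTTTAAAACCC, lies at -33 to -21 in Stfa1, -32 to -20 in Stfa2 and -34 to -22 in Stfa3. It was present in 6 of the 9 stefin promoters and in 8 of all promoters, or 0.0244%. The Cstdc5 window ends before this run could be complete, so Cstdc5 was not counted. Such counts depend on the annotated starts. Of the motifs searched on both strands, TATAAA, the core of the TATA box, was in 0 of the 9 windows and in 12.4% of all promoters, and TGANTCA, the site of AP-1 factors, was in 0 of the 9 and in 6.75%. Only these spellings were searched, so variants of either site were not looked for. The probe sequences are not given in the sources used here. How far each probe also takes up transcripts of the neighbouring copies was not tested, and this holds for every stefin value that follows.

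Values are log2 spot intensities relative to the 75th percentile of the array, so a level can be followed across arrays for 1 probe but not set against another probe. Stfa1, a stefin A gene, read 3.38 in HFD 3 months, 3.58 in HFD 4 days, 3.80 in ND 3 months, 4.12 in ND 4 days and 4.41 in aged anagen. In telogen, its probe read 0.18, -1.58 and -0.57 in HFD 3 months, 2.60, -2.11 and -1.76 in HFD 4 days, -7.46, -0.19 and -1.63 in ND 3 months, -1.92, -4.12 and -4.13 in ND 4 days, and -0.26, -6.26 and 0.13 in aged mice. The anagen arrays spanned 1.02 log2 units and the telogen arrays 10.06, and the groups did not overlap. On 2 telogen arrays, ND 3 months replicate 1 and aged replicate 2, the probe was not well above background. Averaged over conditions, anagen exceeded telogen by 5.80 ± 1.16 (log2, SE), or 55.5-fold.

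Cstdc6 had the same outline. Its probe read 1.62 in HFD 3 months, 1.92 in HFD 4 days, 2.02 in ND 3 months, 2.52 in ND 4 days and 2.61 in aged anagen. The telogen arrays read -2.15, -3.88 and -5.25 in HFD 3 months, 0.73, -4.21 and -3.84 in HFD 4 days, -4.94, -3.63 and -3.50 in ND 3 months, -4.38, -4.63 and -4.51 in ND 4 days, and -1.75, -5.49 and -1.81 in aged mice. Every anagen array lay above every telogen array, and the probe was not well above background on HFD 3 months replicate 3 and aged replicate 2 in telogen. The difference between the phases was 5.69 ± 0.74, or 51.5-fold.

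Stfa2 and Stfa3 were well above background on all 20 arrays and had smaller differences. Stfa2 read 0.86 in HFD 3 months, -0.16 in HFD 4 days, 0.35 in ND 3 months, 1.76 in ND 4 days and 2.35 in aged anagen. Its telogen values were -1.85, -2.23 and -3.91 in HFD 3 months, 0.04, -1.19 and -0.96 in HFD 4 days, -2.45, -1.89 and -1.76 in ND 3 months, -2.01, -1.23 and -1.39 in ND 4 days, and -3.76, -3.42 and -1.96 in aged mice. The lowest anagen array, HFD 4 days, fell 0.20 below the highest telogen array, which was replicate 1 of the same condition, so here the phases overlapped. The difference between the phases was 3.03 ± 0.51 for Stfa2, or 8.15-fold.

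Stfa3 read 5.06 in HFD 3 months, 4.56 in HFD 4 days, 4.85 in ND 3 months, 5.13 in ND 4 days and 4.85 in aged anagen. In telogen the values were 3.15, 3.49 and 1.40 in HFD 3 months, 3.95, 2.69 and 3.02 in HFD 4 days, 2.69, 3.37 and 3.37 in ND 3 months, 2.08, 3.03 and 2.88 in ND 4 days, and 1.71, 1.53 and 2.73 in aged mice. Its anagen arrays spanned 0.57 log2 units, the narrowest range of the 4 probes, and lay above all telogen arrays. The difference was 2.15 ± 0.34, or 4.44-fold. Every anagen array was above every telogen array for Stfa1, Stfa3 and Cstdc6, 3 of the 4 genes, against 0.79% of all tested genes. Since the genes were picked on this contrast, nothing is read from that count.

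**Figure D1:**
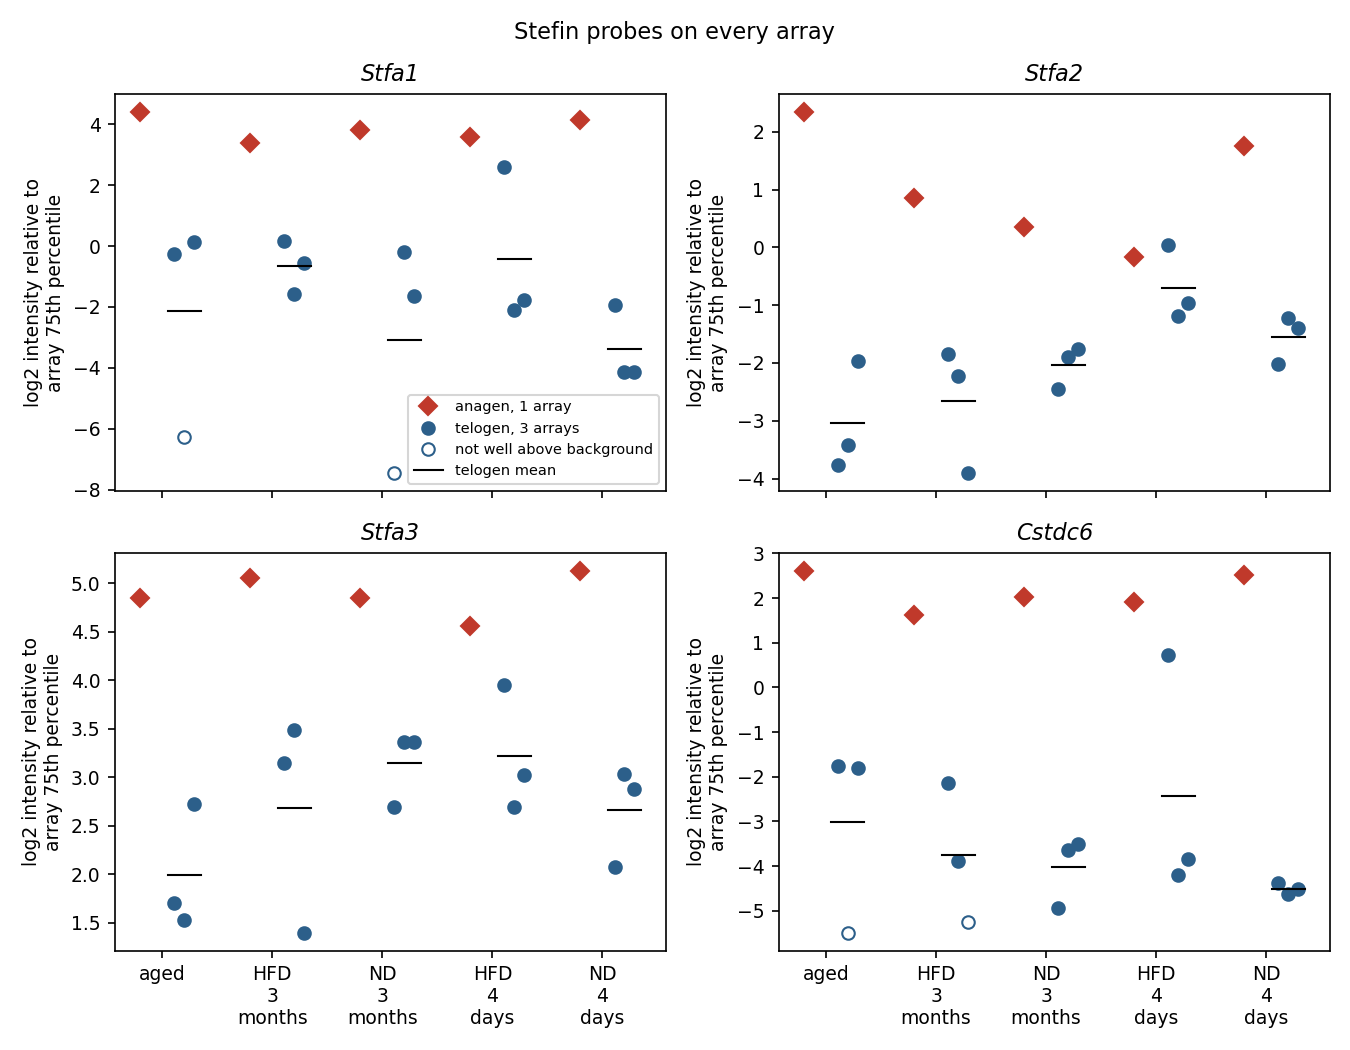
Log2 intensity relative to the 75th percentile of the array (vertical axis) for the 4 stefin probes, by condition (horizontal axis). Red diamonds are the single anagen arrays, blue circles the 3 telogen arrays (open where not well above background) and black lines the telogen means. Red lies above blue in every condition except for Stfa2 in HFD 4 days, where anagen read -0.16 and telogen replicate 1 read 0.04.

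The gap between the phases differed among conditions. Anagen exceeded the telogen mean of Stfa1 by 4.04 in HFD 3 months, 6.89 in ND 3 months, 4.00 in HFD 4 days, 7.51 in ND 4 days and 6.54 in aged mice. For Cstdc6 the gaps were 5.38 in HFD 3 months, 6.04 in ND 3 months, 4.36 in HFD 4 days, 7.03 in ND 4 days and 5.62 in aged mice. Both genes thus had their widest gap in ND 4 days. For Stfa2 the gaps were 3.52, 2.38, 0.54, 3.30 and 5.40 in the same order, and for Stfa3 2.38, 1.71, 1.34, 2.47 and 2.86, so both had the widest gap in aged mice. On telogen arrays where the probe was well above background, the gap of Stfa1 was 4.71 in ND 3 months and 4.47 in aged mice, and that of Cstdc6 was 4.64 in HFD 3 months and 4.38 in aged mice, each lower than with the dim array in the mean. Without HFD 4 days telogen replicate 1, described below, the HFD 4 days gaps were 5.51 for Stfa1, 5.94 for Cstdc6, 0.91 for Stfa2 and 1.71 for Stfa3, the last equal to that of ND 3 months. Anagen and telogen arrays shared a slide in ND 3 months, ND 4 days and aged mice only. With slide as a further term in the fit, the differences were 6.98 for Stfa1, 6.23 for Cstdc6, 3.69 for Stfa2 and 2.35 for Stfa3.

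With 1 anagen array per condition, differences between conditions in anagen have no replicate check. The arrays of each pair compared here also lay on different slides. In the 3 months mice, HFD minus ND was -0.42 for Stfa1, 0.51 for Stfa2, 0.20 for Stfa3 and -0.40 for Cstdc6 in anagen. In the 4 days mice it was negative for all 4, at -0.54 for Stfa1, -1.92 for Stfa2, -0.57 for Stfa3 and -0.61 for Cstdc6. The aged array differed from ND 3 months by 0.60 for Stfa1, 2.00 for Stfa2, 0.00 for Stfa3 and 0.59 for Cstdc6. The widest of these gaps were thus those of Stfa2.

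One telogen array stood apart for the stefins. On HFD 4 days replicate 1, Stfa1 read 2.60 against 0.18 for the highest of the other 14 telogen arrays, and Cstdc6 read 0.73 against -1.75. Stfa2 read 0.04 against -0.96 and Stfa3 3.95 against 3.49. All 4 genes therefore had their highest telogen value on this array, as did 4.57% of all tested genes. The mean of the 4 log2 values, taken relative to the telogen mean of each gene, was 3.02 on it, 3.66 to 4.74 on the anagen arrays and -2.23 to 1.02 on the other telogen arrays. Of 5 cluster relatives, 4 also had their highest telogen value there. Stfa2l1 read 0.16 against -1.02, Cstdc4 -1.74 against -4.16, Cstdc5 4.45 against 3.40 and Csta2 1.77 against 1.25. The exception was Csta3, at -0.42 on this array and -0.08 on aged replicate 1.

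Genes of other groups were mixed on that array. S100a8, a subunit of the calprotectin of neutrophils and stressed keratinocytes, read -1.80 there, -4.55 to 1.30 in anagen and -8.14 to -6.11 on the other telogen arrays, where it was not well above background. Its partner S100a9 read -4.66 there and was not well above background. Sprr2d, a small proline-rich protein of the cornified envelope, read -2.90 against a highest other telogen value of -5.98, while the whole cornified envelope list scored 0.99, within the -0.95 to 1.41 of the other telogen arrays. The suprabasal and activation keratins scored 0.90, above the highest other telogen score of 0.79. The cell cycle list scored 0.88, within the -1.51 to 2.08 of the other telogen arrays and below the 2.66 to 3.72 of the anagen arrays. Cd34 read 5.44 on this array, 2.53 to 3.45 in anagen and 4.73 to 5.80 on the other telogen arrays. The array lay in slide 2, row 2, column 2, beside the ND 4 days anagen array in column 1, and whether that position plays a part was not tested. Without it, the anagen minus telogen differences were 6.11 for Stfa1, 6.01 for Cstdc6, 3.15 for Stfa2 and 2.24 for Stfa3. All 4 genes were then without overlap, against 0.844% of all tested genes. As the genes were picked on this contrast and the array was singled out for its stefin values, nothing is read from that count.

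**Figure D2:**
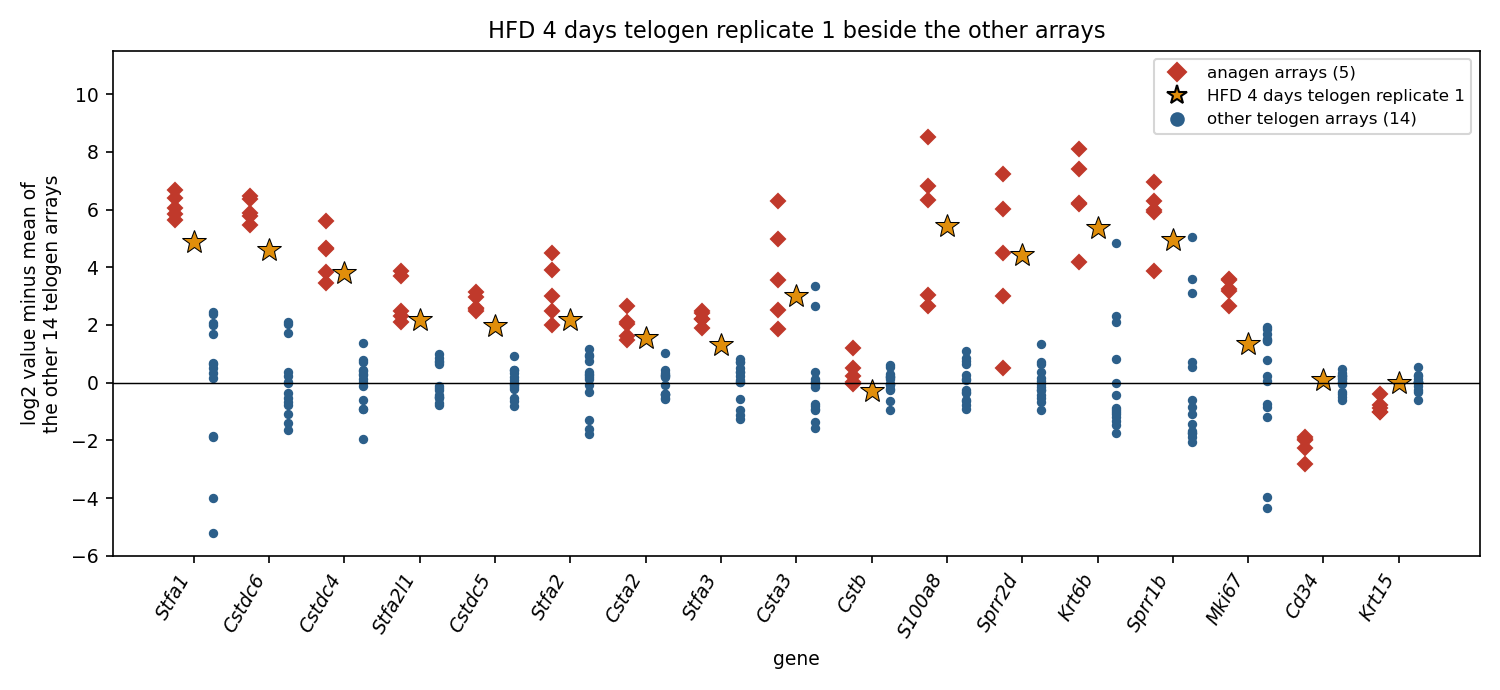
Log2 values of 17 genes minus the mean of the other 14 telogen arrays (vertical axis). Red diamonds are the 5 anagen arrays, the star is HFD 4 days telogen replicate 1 and blue circles are the other telogen arrays; for Stfa1 the star is at 2.60 on the scale of the text, above 0.18 on the next telogen array, while for Cd34 it lies among the telogen arrays.

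The choice of genes rested on anagen against telogen, not on differences among the telogen groups. Among these groups, the question was whether diet or age moved the stefins. In telogen, all ND 3 months arrays lay in row 1 of slide 1 and all HFD 3 months arrays in row 2. The ND 4 days and HFD 4 days arrays lay likewise in rows 1 and 2 of slide 2. Diet and slide row therefore cannot be told apart in the diet comparisons. None of the 4 genes passed the test in any of 6 comparisons (limma, Benjamini-Hochberg adjusted over 18727 genes). HFD 4 days had the highest telogen mean for each of them, at -0.42 ± 2.62 for Stfa1, -2.44 ± 2.75 for Cstdc6, -0.70 ± 0.65 for Stfa2 and 3.22 ± 0.65 for Stfa3 (SD, n = 3). Without its replicate 1 those means were -1.93, -4.02, -1.07 and 2.86 in that order, and the highest was then HFD 3 months for Stfa1 (-0.66), aged for Cstdc6 (-3.02) and ND 3 months for Stfa3 (3.14), with HFD 4 days still highest for Stfa2. The lowest mean was that of ND 4 days for Stfa1 (-3.39 ± 1.27) and Cstdc6 (-4.51 ± 0.12), and that of aged mice for Stfa2 (-3.05 ± 0.96) and Stfa3 (1.99 ± 0.65). In between, Stfa1 averaged -0.66 ± 0.88 in HFD 3 months, -2.13 ± 3.58 in aged and -3.09 ± 3.85 in ND 3 months. Neighbouring means of Stfa1 and of Cstdc6 differed by less than the larger SD of the pair. For Stfa2, the gap of 0.84 between HFD 4 days and ND 4 days and that of 0.50 between ND 4 days and ND 3 months exceeded that SD, and for Stfa3 so did the gap of 0.67 between ND 4 days and aged.

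After 4 days of diet, HFD minus ND was 2.97 ± 2.01 (SE) for Stfa1, 2.07 ± 1.30 for Cstdc6, 0.84 ± 0.59 for Stfa2 and 0.56 ± 0.56 for Stfa3, with an adjusted p of 1 for each. The 95% intervals ran from -1.40 to 7.34 for Stfa1, -0.76 to 4.90 for Cstdc6, -0.44 to 2.12 for Stfa2 and -0.66 to 1.77 for Stfa3. Without HFD replicate 1 the differences were 1.46, 0.49, 0.47 and 0.19 in that order. Across all tested genes 0% passed in this comparison.

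After 3 months of diet the 4 genes did not go 1 way. HFD minus ND was 2.44 ± 2.01 for Stfa1, 0.26 ± 1.30 for Cstdc6, -0.63 ± 0.59 for Stfa2 and -0.47 ± 0.56 for Stfa3, with an adjusted p of 1 for each and again 0% of all genes passing. The interval of Stfa1 ran from -1.94 to 6.81, and ND 3 months replicate 1, where its probe was not well above background, read -7.46. Without that array the differences were 0.26 for Stfa1 and -0.19 for Cstdc6. The test of whether the diet difference changed with duration (3 months minus 4 days) gave -0.53 ± 2.85 for Stfa1, -1.81 ± 1.84 for Cstdc6, -1.46 ± 0.83 for Stfa2 and -1.02 ± 0.79 for Stfa3, with an adjusted p of 1 for each and 0% of all genes passing. Without HFD 4 days replicate 1 these were 0.98, -0.22, -1.09 and -0.66 in that order.

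The aged minus ND differences split the 4 genes by sign, with none past the threshold. In telogen, all aged arrays lay on slide 3, all ND 3 months arrays on slide 1 and all ND 4 days arrays on slide 2. Age and slide therefore cannot be told apart in these comparisons. Aged minus ND 3 months was 0.96 ± 2.01 for Stfa1 and 1.01 ± 1.30 for Cstdc6, but -1.01 ± 0.59 for Stfa2 and -1.15 ± 0.56 for Stfa3 (adjusted p 0.893, 0.801, 0.52 and 0.439; 0.0641% of all genes passed). Against ND 4 days the aged group differed by 1.26 for Stfa1, 1.49 for Cstdc6, -1.51 for Stfa2 and -0.67 for Stfa3 (adjusted p 0.942, 0.861, 0.557 and 0.852; 0.0374% of all genes passed). With slide as a term, aged minus ND 3 months was 3.07 for Stfa2 and 0.11 for Stfa3, and the adjusted p was 0.994 and 1. That fit took in the anagen arrays. Its slide terms rested on the single HFD 3 months and HFD 4 days anagen arrays, which lay on other slides than their telogen arrays. At an unadjusted p below 0.05, only Stfa2 in aged minus ND 4 days was counted, with limma's p of 0.0247, and 7.85% of all tested genes were. With slide as a term that difference was 2.17 (adjusted p = 1). ND 3 months minus ND 4 days, which compares mice of 5 and 2 months, gave 0.30 for Stfa1, 0.49 for Cstdc6, -0.49 for Stfa2 and 0.48 for Stfa3 (adjusted p 0.975, 0.931, 0.799 and 0.793; 0.016% of all genes passed). The intervals were wide: for aged minus ND 3 months they ran from -3.41 to 5.34 for Stfa1 and from -2.37 to 0.06 for Stfa3.

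**Figure D3:**
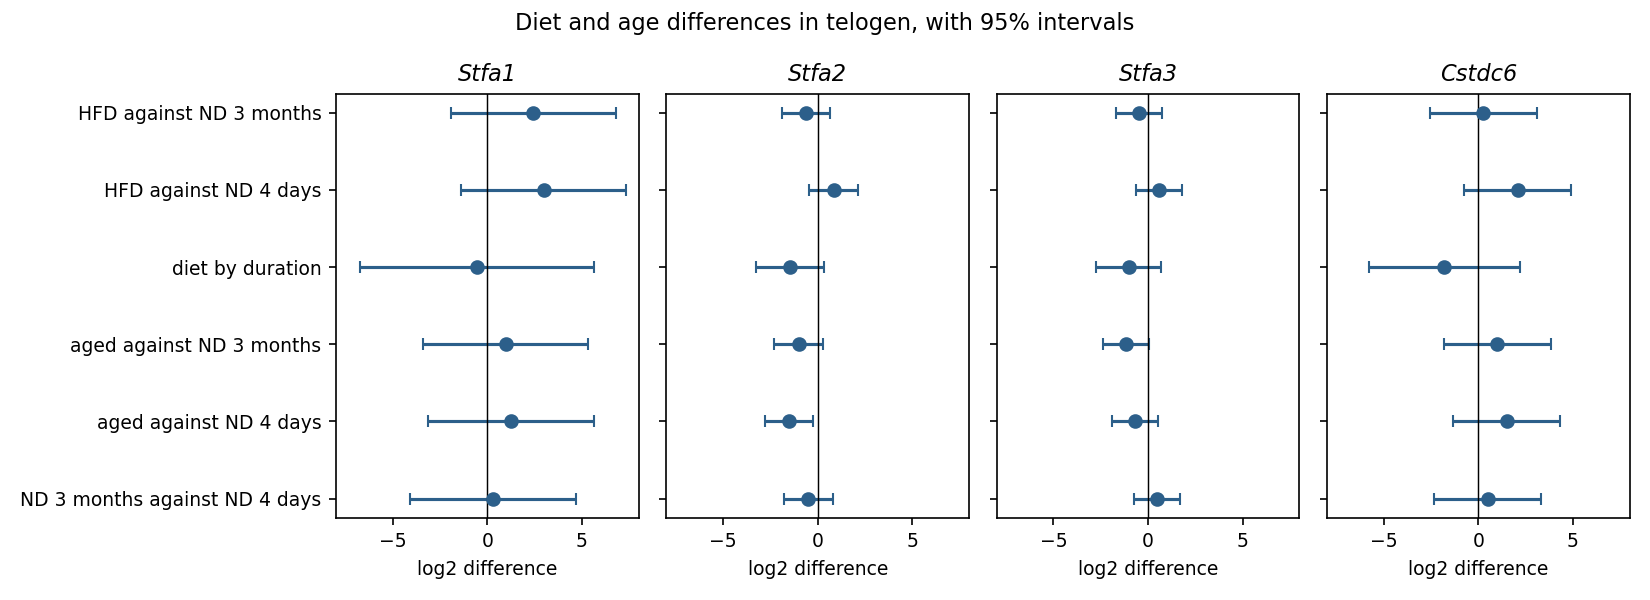
Log2 differences between telogen groups (horizontal axis) for the 4 stefin genes, with 95% intervals from limma; rows are the 6 comparisons. Intervals of Stfa1 and Cstdc6 are wider than those of Stfa2 and Stfa3, and the single interval that leaves 0 out is that of Stfa2 in aged against ND 4 days (-2.79 to -0.23), whose adjusted p was 0.557.

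Over the 15 telogen arrays the 4 genes varied in 2 pairs. Pearson's r was 0.77 between Stfa1 and Cstdc6 and 0.82 between Stfa2 and Stfa3, against 0.25 between Stfa1 and Stfa2, 0.32 between Stfa1 and Stfa3, 0.42 between Cstdc6 and Stfa2 and 0.48 between Cstdc6 and Stfa3. On the 14 arrays without HFD 4 days replicate 1, the first pair had 0.70 and the second 0.77, while the 4 mixed pairs had values of 0.00 to 0.26. Some cluster relatives moved about as closely with the 4 genes. Over the 15 arrays r was 0.82 between Cstdc6 and Cstdc5, 0.73 between Stfa1 and Cstdc5 and 0.75 between Stfa2 and Cstdc4. Others were lower, down to -0.02 between Stfa3 and Csta3. On aged replicate 2 neither Stfa1 nor Cstdc6 was well above background. The arrays share cells of the same kind and the probes may share targets, so these values only describe how the readings moved.

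Of the stefin relatives, 9 other genes were on the array and 8 were tested. Compared with telogen, 5 of the 8 rose in anagen and 0 fell, with a median difference of 2.25, while 2.81% of all tested genes rose and 3.31% fell and the median over all genes was -0.16. Cstdc4 rose by 4.18 ± 0.52 (adjusted p = 0.000224), although its probe was well above background on 6 of the 15 telogen arrays only. Csta3 rose by 3.63 ± 0.54 (adjusted p = 0.000823), Stfa2l1 by 2.75 ± 0.38 (0.00047), Cstdc5 by 2.62 ± 0.33 (0.000263) and Csta2 by 1.88 ± 0.30 (0.0015). The count was also 5 of 8 with slide as a term and 5 of 8 without HFD 4 days telogen replicate 1, when 2.74% of all tested genes rose. Csta1, the first gene of the cluster, was well above background on 4 of the 20 arrays and was not tested.

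All 5 relatives that rose belong to the chromosome 16 cluster, and the 3 that did not pass lie outside it. Cstb, which encodes the widely expressed stefin B, read 5.12, 3.96, 4.14, 3.88 and 4.42 in HFD 3 months, HFD 4 days, ND 3 months, ND 4 days and aged anagen, and 2.98 to 4.52 in telogen, a difference of 0.40 ± 0.24 (adjusted p = 0.331). Cstdc1 differed by -0.79 ± 0.34 (adjusted p = 0.184) and Cstdc2 by -0.34 ± 0.61 (adjusted p = 0.758). The probe of Cstdc2 was well above background on 2 of 5 anagen and 6 of 15 telogen arrays only, so its value lies near the floor. In RefSeq's gene order the cluster holds 11 stefin genes, of which 10 were on the array and 9 tested. Going along the chromosome, the differences were 2.75 for Stfa2l1, 4.18 for Cstdc4, 3.63 for Csta3, 1.88 for Csta2, 5.80 for Stfa1, 5.69 for Cstdc6, 2.62 for Cstdc5, 3.03 for Stfa2 and 2.15 for Stfa3. None of the 10 flanking genes, 5 on each side, passed, against 6.11% of all tested genes. That count is near the share over all genes, and nothing is read from it. The flanking differences ran from -0.86 for Casr, which encodes the calcium-sensing receptor next to Stfa3, to 0.59 for Kpna1, an importin. In telogen, 0 of the 12 tested stefin genes passed in any diet or age comparison (limma). At an unadjusted p below 0.05, Csta3 was counted in aged minus ND 3 months, with 3.01 ± 0.82 (adjusted p = 0.258), and in aged minus ND 4 days, with 2.08 ± 0.82 (adjusted p = 0.56), where 11.9% and 7.85% of all tested genes were counted. The groups of each of these comparisons lay on different slides.

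**Figure D4:**
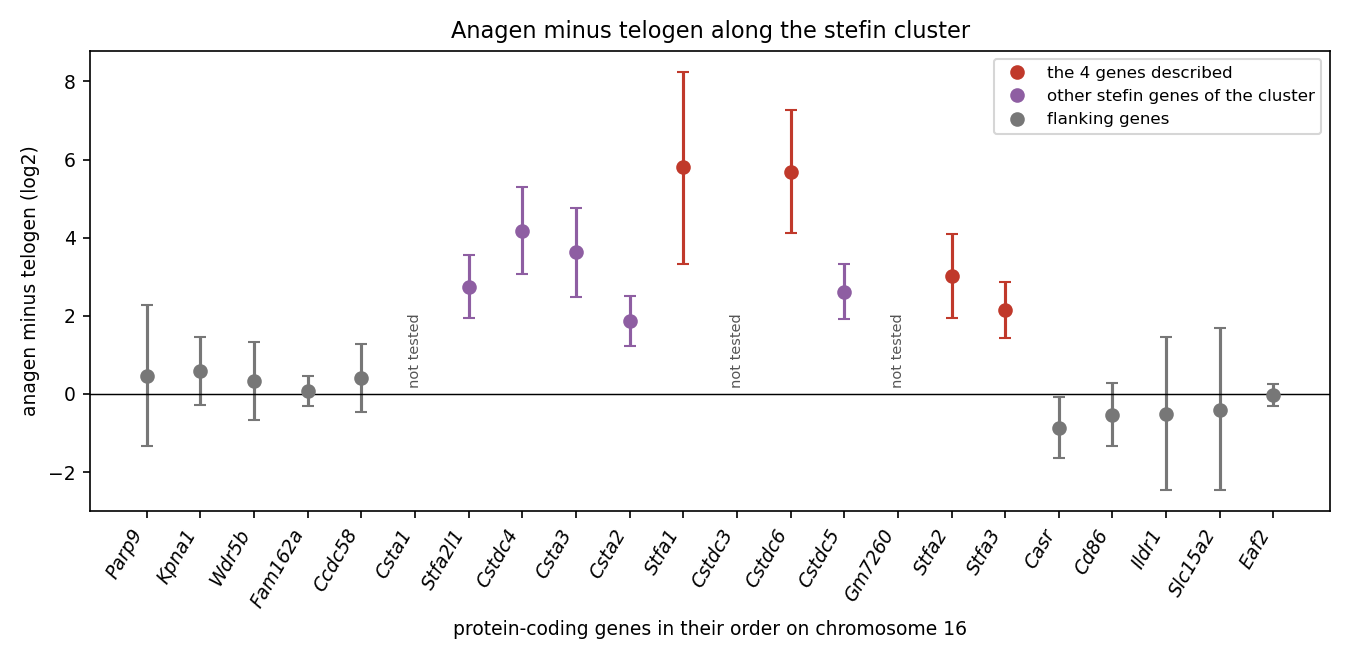
Anagen minus telogen on the log2 scale (vertical axis) with 95% intervals, for genes in their order on chromosome 16 (horizontal axis, evenly spaced). Red points are the 4 genes described, purple points the other cluster genes and grey points the flanking genes, which lie between -0.86 and 0.59; Csta1 was too dim to test and no probe was matched to Cstdc3 and Gm7260.

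The proteases that stefins block did not pass. None of the 10 tested cathepsin genes passed the test in anagen (limma), against 6.11% of all tested genes, and their median difference was -0.21. Ctsc, which activates serine proteases of immune cells, differed by 2.47 ± 0.90 (adjusted p = 0.114), Ctsl, the lysosomal cathepsin L of the follicle, by -0.67 ± 0.25 (adjusted p = 0.123) and Ctsb by -0.04 ± 0.16 (adjusted p = 0.913). Of the secreted cystatins, 0 of 5 tested passed, with a median of -0.07. Cst6, the secreted cystatin of the epidermis, differed by 0.53 ± 0.21 (adjusted p = 0.152) and Cst3, cystatin C, by -0.41 ± 0.22 (adjusted p = 0.268).

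Genes of the cornified envelope, of which stefin A is a part in humans, rose in part. Of 38 tested, 9 rose and 1 fell, with a median of 1.29, while 2.81% of all tested genes rose and 3.31% fell. Sprr1b rose by 5.48 ± 1.09 (adjusted p = 0.00708), Sprr2b by 2.95 ± 0.52 (0.00289), Sprr2k by 1.73 ± 0.29 (0.00222) and Hrnr, a filaggrin relative, by 2.53 ± 0.45 (0.00292), while Tgm5, a cross-linking enzyme, fell by 1.84 on the log2 scale (adjusted p = 0.000214). Sprr1b was named for its size and after its value was seen. Of 8 suprabasal and activation keratins, 4 rose and 0 fell, with a median of 0.83. Krt6b rose by 6.06 ± 0.98 (adjusted p = 0.00151), Krt16 by 3.22 ± 0.55 (0.00226), Krt1 by 1.26 ± 0.36 (0.0477) and Krt17 by 0.66 ± 0.17 (0.0316). With slide as a term, 2 of these keratins passed, with a median of 0.67, and 1.11% of all tested genes rose.

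Other lists show what the anagen arrays hold beside the stefins. Of 15 cell cycle genes, 12 rose and 0 fell, with a median of 3.18 and a range of 1.80 to 4.90. Of all tested genes, 2.81% rose and 3.31% fell, which holds for each list here. With slide as a term 4 passed, with a median of 3.48, and 1.11% of all tested genes rose. Of the 4 with the smallest p, Bub1, a kinase of the spindle checkpoint, rose by 4.90 ± 0.88 (adjusted p = 0.00317) and Ccnb2, a mitotic cyclin, by 3.10 ± 0.51 (0.00157), and the differences were 2.48 for Nusap1 and 1.80 for Aurkb, the smallest of the list. Of 12 bulge stem cell genes, 0 rose and 4 fell, with a median of -0.33. Cd34 fell by 2.19 on the log2 scale (adjusted p = 1.99e-05), Foxc1 by 0.97 (0.0291), Krt15 by 0.81 (0.0137) and Col17a1 by 0.72 (0.0128). Among hair shaft keratins 0 of 11 tested passed, and of 13 genes of the inner root sheath and companion layer Krt28 rose by 1.37 (adjusted p = 0.0257) and Krt75 fell by 2.56 (adjusted p = 0.00578).

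Stefin genes are also read in neutrophils, so markers of other cells are set beside them. Of 17 tested neutrophil genes, 2 rose and 0 fell, with a median of -0.30, while 2.81% of all tested genes rose and 3.31% fell. The 2 genes were S100a8, by 5.12 ± 0.93 (adjusted p = 0.00358), and the chemokine receptor Cxcr2, by 2.23 ± 0.39 (adjusted p = 0.00247). S100a8 was well above background on 5 of 5 anagen and 1 of 15 telogen arrays, so it entered the tests through anagen and its difference is set mostly against background. The summed linear level of the 19 neutrophil markers on the array was 70.6 to 105 in anagen and 77.7 to 127 in telogen. Csf3r and Trem1 made up 87.6% to 98.5% of that sum, which therefore says little of the others, and without them it was 1.57 to 10.6 in anagen and 1.5 to 5.85 in telogen. Of the granule genes, Ltf was not well above background on any array, and Ltf, Retnlg and Chil3 on no anagen array. Others were detected: Mpo was well above background on 5 anagen and 15 telogen arrays, Elane on 4 and 15, Camp on 3 and 13 and Ngp on 3 and 8. Of other cell types, 0 of 11 macrophage and Langerhans genes, 0 of 8 T cell genes and 0 of 5 mast cell genes passed. In the fibroblast list, Col6a1 fell by 1.44 (adjusted p = 0.000993) and Col1a2 by 1.90 (adjusted p = 0.00212), and Dcn was at least 2.38-fold higher (adjusted p = 0.0118), being well above background on 3 of 5 anagen and 0 of 15 telogen arrays and so tested through anagen alone. Mitf of the melanocyte list fell by 2.34 (adjusted p = 0.0154) and Hba-a2 of the red blood cell list by 1.24 (adjusted p = 0.0486). The part of other cells in the stefin values was not tested.

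**Figure D5:**
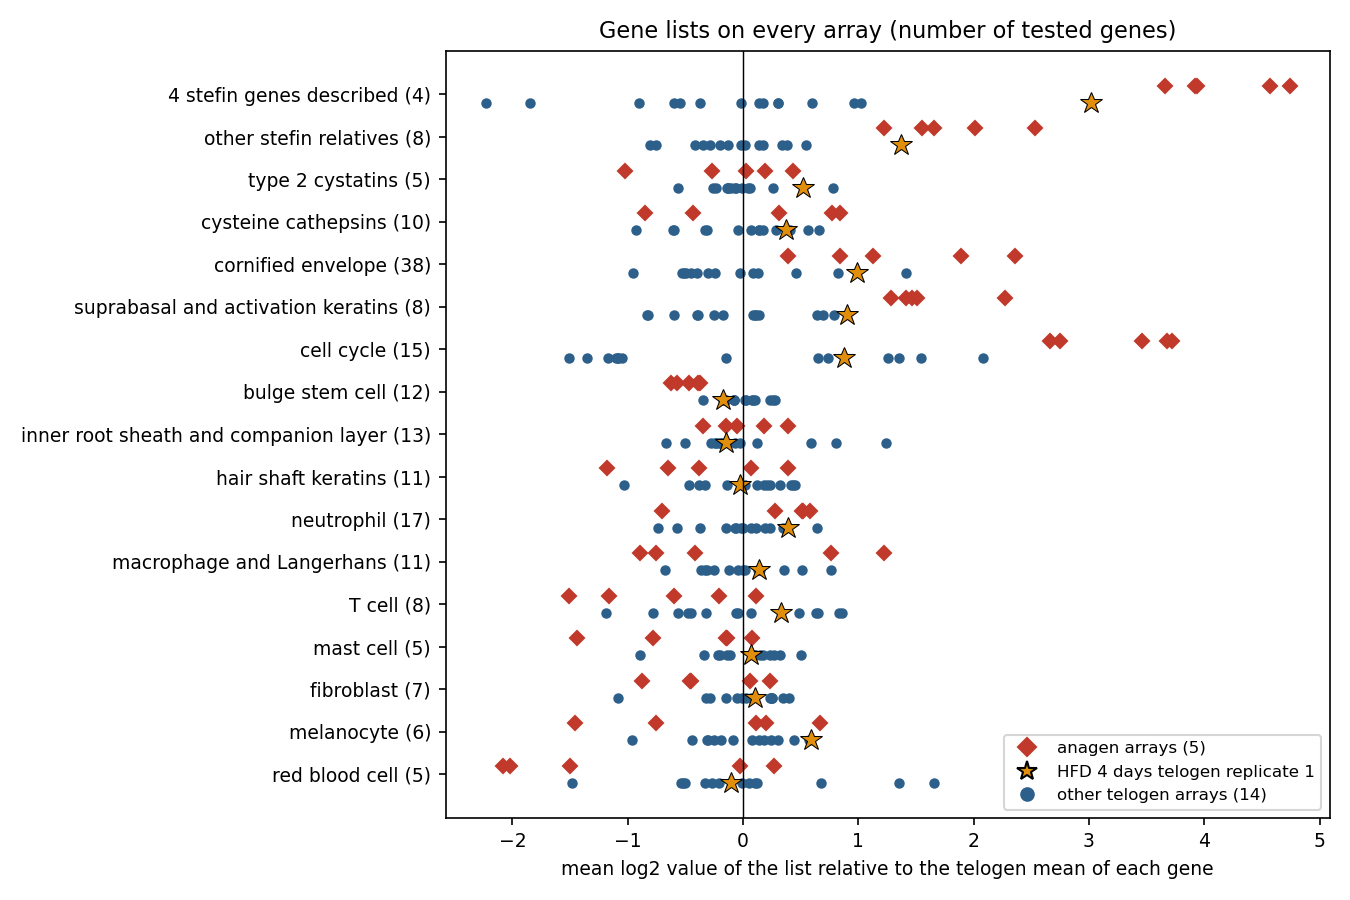
Mean log2 value of each gene list relative to the telogen mean of its genes (horizontal axis), 1 point per array. Red diamonds are anagen, blue circles telogen and the star is HFD 4 days telogen replicate 1. The 4 stefin genes score 3.66 to 4.74 in anagen, and the neutrophil list scores -0.70 to 0.58 in anagen and -0.74 to 0.64 on the other telogen arrays.

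Likeness to the 4 genes was measured as Pearson's r with their mean log2 value over all 20 arrays, leaving out stefins. As the arrays fall into 2 phases, this mostly ranks genes by how cleanly they separate anagen from telogen. The 10 genes with the highest r were Sprr2k (0.901), Krt6b (0.897), S100a8 (0.885), Racgap1 (0.883), which acts in cytokinesis, Pdxp (0.871), a vitamin B6 phosphatase, Sprr2b (0.869), Kdm1a (0.857), a histone demethylase, Ulbp1 (0.854), a ligand of the NKG2D receptor, D630023F18Rik (0.842) and Fabp5 (0.837), the epidermal fatty acid binding protein. Racgap1 was higher in anagen by 2.40 ± 0.33 and Fabp5 by 1.67 ± 0.29. Since the ranking favours genes that are high in anagen, the differences of Racgap1, Fabp5 and Ulbp1 describe these genes and do not test them. Ulbp1 was at least 12.1-fold higher in anagen, as it was well above background on 5 of 5 anagen and 0 of 15 telogen arrays (adjusted p = 1.99e-05), and it too was tested through anagen alone. Over the 15 telogen arrays alone, the most alike were Tafa4 (r = 0.908), Rims3 (0.884), Trmt9b (0.862), Gm29811 (0.842) and Gchfr (0.839). Without HFD 4 days replicate 1 these had 0.902, 0.779, 0.741, 0.733 and 0.779, and none of the 5 passed in anagen (adjusted p 0.188 to 0.935).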

How the data were processed

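Per the file headers, each scanner file was made by the authors with Agilent Feature Extraction 10.7.1.1 and gives background-subtracted, detrended spot intensity for a Cy3-labelled sample on a 1-colour array. The deposited table of the whole series holds a linear signal per probe, which matched the processed intensity over its 75th percentile on each array (r of at least 0.9999 on the log2 scale), with no centring. Here the spots of a probe were averaged, and the means were scaled by the 75th percentile and put on the log2 scale (R 4.3.3, limma 3.58.1, and data.table at 1.17.8). Probes entered the tests if all 3 arrays of a telogen group, or at least 3 anagen arrays, had them well above background (43395 probes). Probes were named through transcript accessions in RefSeq (32994 with 1 symbol, 23611 with no single symbol), and the tested probe with the highest mean stood for a gene (18727 genes). A limma fit over the 15 telogen arrays compared diets and ages, and another over 20 arrays compared anagen with telogen, with condition as a factor, two-sided, Benjamini-Hochberg adjusted at 0.05. The number of arrays limits the precision: the median half-width of a 95% interval was 1.15 in telogen and 0.75 for anagen.

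The genes and lists were chosen with earlier results of these data known. All stefin probes are named. Of other lists, those past the threshold are named, up to 4 by p, with genes past it in telogen and the genes most like the 4 stefins. Where a gene was above background on 0 arrays of a group, the fold is given as "at least": the brighter mean was set against, per dim array, its own value or the lowest signal called well above background, whichever was higher. Promoters were aligned globally with Biopython 1.88, figures drawn with matplotlib 3.10.9, and the fits tested on simulated data. Alternatives covered background correction, scaling, the deposited table, filters on dim probes, the probe of a gene, arrays in the fit, a replicate or slide block and leaving out each array. Replicate numbers did not pair arrays: across 30 pairs with the same number, residuals correlated between -0.14 and 0.06.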

Additional observations from a re-analysis of the deposited data

How the results depend on the processing

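Over all alternatives, 0 of 444 telogen values of the 4 genes passed the threshold, and the smallest adjusted p (limma) was 0.281. These values are refits of the same 4 genes and not separate checks. In the main fits only 0% to 0.0641% of all tested genes passed per telogen comparison, so that count says little by itself. With each of the 20 arrays left out in turn, anagen minus telogen ran from 5.37 to 6.24 for Stfa1, 2.44 to 3.65 for Stfa2, 1.97 to 2.35 for Stfa3 and 5.35 to 6.02 for Cstdc6. Other scalings, filters, background corrections and the slide block gave 5.18 to 6.98 for Stfa1, 2.76 to 3.69 for Stfa2, 2.13 to 2.36 for Stfa3 and 4.81 to 6.23 for Cstdc6. Within a slide, the values furthest from these were 7.51 for Stfa1 and 7.03 for Cstdc6 in ND 4 days and 5.40 for Stfa2 and 2.86 for Stfa3 in aged mice, and HFD 4 days, with its phases on different slides, gave 4.00, 4.36, 0.54 and 1.34 in that order. Signs of telogen differences, none past the threshold, turned in places when 1 array was left out: HFD minus ND 3 months ran from 0.26 to 3.89 for Stfa1, -0.54 to 1.01 for Cstdc6 and -0.87 to 0.17 for Stfa3, and for Stfa1 diet by duration from -2.71 to 0.98, aged minus ND 3 months from -1.22 to 3.03 and ND 3 months minus ND 4 days from -1.15 to 2.48. With a slide block, aged minus ND 3 months was 3.07 for Stfa2 and 0.11 for Stfa3, aged minus ND 4 days 2.17 and 0.43, and ND 3 months minus ND 4 days -2.80 for Stfa1 and -0.61 for Cstdc6. The telogen age groups shared no slide, so that fit took in the anagen arrays. Its slide terms came only from the single HFD 3 months and HFD 4 days anagen arrays, on other slides than their telogen arrays. What lay behind the values of those arrays was not tested. Among lists, the slide block left 4 cell cycle genes and 2 suprabasal and activation keratins higher in anagen, against 12 and 4 without it, with medians of 3.48 and 0.67 against 3.18 and 0.83; over all genes it left 207 higher, against 526. These list counts, the gaps on arrays well above background and the counts and means without HFD 4 days telogen replicate 1 were chosen after seeing the data.

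A replicate block changed no call of the 4 genes; over all genes it gave 7 in place of 12 for aged against ND 3 months, 6 in place of 7 for aged against ND 4 days and 0 in place of 3 for ND 3 months against ND 4 days. With only the arrays compared in the fit, those 3 counts were 0, and HFD against ND 4 days and diet by duration had 1 gene each in place of 0. Stfa1 and Cstdc6 drop out under a filter that asks for signal well above background on all 20 arrays, since each is near background on 2 telogen arrays. Anagen rests on 1 array per condition.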

Other observations

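In the telogen comparisons, 1 gene of the lists passed. Lce1i, a late cornified envelope protein, was at least 8.12-fold higher in aged than in ND 3 months mice (adjusted p = 0.0378), detected above background on 3 of 3 arrays of aged mice and 0 of 3 of ND 3 months. It did not pass with only the arrays compared in the fit (adjusted p = 0.163) or with a replicate block (adjusted p = 0.116). The aged and ND 3 months telogen arrays lay on different slides, so age and slide cannot be told apart here.

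On HFD 4 days telogen replicate 1, genes outside the stefins also lay far above the other 14 telogen arrays. Fabp4, a fatty acid binding protein of fat cells and of other cells, read 0.42 there against -4.32 on the next telogen array and a median of -2.45 in anagen. Foxj1, a regulator of motile cilia, read -0.91 against -4.21, with an anagen median of -6.24. In all, 855 genes had their highest telogen value on this array, and 778 to 3446 did on each of the others. The median of genes higher in anagen was 0.42 on it relative to the other telogen arrays, within the range of -0.47 to 0.59 of those arrays. These genes were chosen after their values were seen, and no test was made on them.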
